A study of Mus musculus with 12 samples.

Results

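Malat1, Neat1, Snhg1, Snhg5, Snhg8, Snhg12, Snhg15, Mir22hg and Carmn are mouse long noncoding RNA genes whose transcripts either stay in the nucleus or are hosts of, or neighbours to, genes for small RNAs. They were chosen by name, with earlier results of these data known. Each symbol was matched to its Ensembl identifier in the count tables, and 9 of the 49671 genes listed matched. All 9 also passed the filter on low counts. Malat1 and Neat1 lie next to each other in the genome and their transcripts are retained in the nucleus. Malat1 gathers in nuclear speckles, which hold splicing factors, and the long form of Neat1 is the RNA scaffold of paraspeckles, which hold RNA-binding proteins. The Snhg genes carry small nucleolar RNAs (snoRNAs) in their introns, which are trimmed out after splicing and guide the chemical modification of ribosomal RNA, while the spliced host RNA is in several cases short-lived because it is subject to nonsense-mediated decay. Mir22hg is the primary transcript of the microRNA miR-22, and Carmn is a noncoding RNA of smooth muscle and heart that lies beside the genes of miR-143 and miR-145.

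Mouse fibroblasts of the line NIH 3T3, derived from embryos and immortal in culture, had been transfected with a control siRNA or with Lap2 siRNA, which targets Lap2, the lamina-associated polypeptide made from the gene Tmpo. The cells were kept in 0.3% FBS overnight (starved) or were then given 15% FBS for 45 min (stimulated). Total RNA depleted of ribosomal RNA was sequenced with a directional library kit in 12 libraries, 3 in each of 4 groups: control siRNA in 0.3% FBS, control siRNA in 15% FBS, Lap2 siRNA in 0.3% FBS and Lap2 siRNA in 15% FBS. The comparisons asked how serum changed each RNA with each siRNA, how Lap2 siRNA changed it in each serum condition, and whether the serum responses of control and Lap2-depleted cells differed. Nothing in the labels says that the 3 libraries of a group came from separate cultures, so p-values measure the spread between these samples, which may be technical. Sample titles number the libraries straight through, so replicate numbers below are only their order within each group. The 5 comparisons share libraries and are not independent of each other.

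The libraries held 18026298 to 26265253 counts, of which the 9 genes took 0.0605% to 0.133%. Tmpo, the siRNA target, was 2.61-fold lower with Lap2 siRNA in 0.3% FBS (log2FC -1.38, SE 0.08, n = 3 in each group, adjusted p = 8.7e-16) and 4.50-fold lower in 15% FBS (log2FC -2.17, SE 0.08, adjusted p = 3.8e-19, both from edgeR's quasi-likelihood test). The 8 fibroblast markers summed to between 473559 and 753967 normalized counts in a library, against 3.96 to 23.4 for 5 epithelial markers, 4.59 to 18.8 for 3 endothelial markers and 30.2 to 53.9 for 4 leukocyte markers. Normalized counts here are read counts divided by each library's TMM-scaled size and brought to the mean size of the libraries. Called means an adjusted p under 0.05 over the 18668 genes tested. Scaling to total counts in place of TMM moved the median log2FC of all genes by -0.21 (control) and -0.23 (Lap2-depleted) for serum and by 0.11 (starved) for Lap2 siRNA, and upper-quartile scaling moved it by -0.11 for serum in Lap2-depleted cells. Bulk RNA cannot tell fewer cells of a kind from less RNA per cell.

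Serum raised Neat1, Mir22hg and Carmn in control cells and lowered Snhg1, Snhg5 and Snhg12. Thus 3 of the 9 RNAs rose and 3 fell, where 15.6% of all genes tested rose and 13.9% fell. In Lap2-depleted cells serum raised Neat1 and Mir22hg and lowered Malat1, Snhg1 and Snhg5, which is 2 higher and 3 lower against 18.3% and 14.9% of all genes. Lap2 siRNA in starved cells raised Malat1, Neat1, Snhg1, Snhg5, Snhg15 and Mir22hg and lowered Snhg12, which is 6 higher and 1 lower against 17.8% and 18.6% of all genes. In stimulated cells Lap2 siRNA raised 3 of the 9, Snhg1, Snhg5 and Snhg15, and lowered none by edgeR's quasi-likelihood test (0 of 9 lower, and also 0 of 9 lower by DESeq2), against 11.4% and 12.1% of all genes. The only RNA among the 9 with a lower fitted level there was Carmn, at an unadjusted p of 0.0337. The median log2FC of the 9 RNAs was 0.21 for serum in control cells, 0.01 for serum in Lap2-depleted cells, 0.60 for Lap2 siRNA in starved cells and 0.22 in stimulated cells, beside medians of -0.01, 0.00, 0.01 and 0.02 over all genes. With scaling to total counts the first of these medians was near 0 and the second was -0.22. The serum responses of Lap2-depleted and control cells differed for 3 of the 9, all lower in Lap2-depleted cells (Malat1, Neat1 and Carmn). Of all genes 7.09% had a higher and 6.51% a lower response. The 9 genes were chosen with earlier results of these data known. The shares thus describe them and are no test of an excess over all genes.

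**Figure D1:**
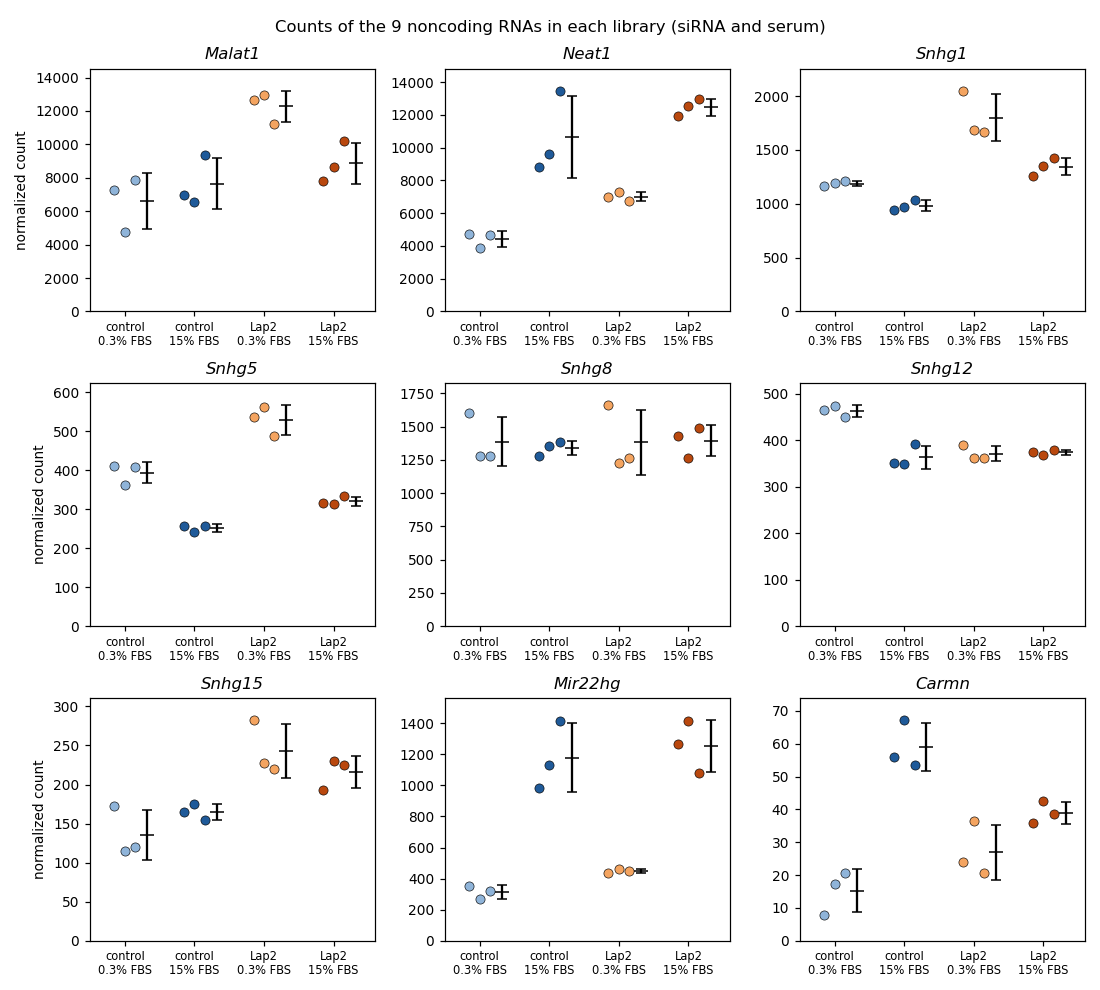
Normalized counts (vertical axis, linear, from 0) of each of the 9 noncoding RNAs in the 12 libraries, 1 panel per gene, with libraries as points in 4 groups along the horizontal axis and the mean ± SD of each group as a bar beside them. Malat1 was highest in the 3 starved Lap2-depleted libraries (11197 to 12963), Mir22hg separated starved from stimulated libraries with both siRNAs, and Snhg8 lay between 1223 and 1661 in all 12.

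Malat1 (ENSMUSG00000092341, chr19:5795690-5802672, minus strand, mm10) and Neat1 (ENSMUSG00000092274, chr19:5824708-5845478, minus strand) are lincRNA genes separated by 22.0 kb. Background knowledge of both is that their 3' ends are not polyadenylated in the usual way: 2 U-rich stretches pair with an A-rich stretch at the end, and a tRNA-like RNA just downstream is cut off during processing. The stretch of each gene that holds this end is printed because it is where the sequences of the 2 RNAs match. Capitals mark the runs of at least 10 bases found in both, in the same order. The sequences come from GENCODE M21 transcripts and gene positions on mm10, minus strand, at chr19:5795928-5796075 for Malat1 and chr19:5824652-5824812 for Neat1, the latter with the adjoining annotated small RNA Gm27702 at its end.
Malat1 3' element: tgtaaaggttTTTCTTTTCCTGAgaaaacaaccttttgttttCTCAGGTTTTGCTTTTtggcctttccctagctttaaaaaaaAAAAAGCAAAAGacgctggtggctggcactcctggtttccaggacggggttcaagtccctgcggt
Neat1 3' element: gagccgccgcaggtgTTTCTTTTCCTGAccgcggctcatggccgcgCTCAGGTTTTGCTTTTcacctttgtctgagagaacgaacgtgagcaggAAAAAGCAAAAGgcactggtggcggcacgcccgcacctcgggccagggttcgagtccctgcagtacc
The shared runs were 13, 16 and 12 bases long and began at bases 6608, 6640 and 6681 of the Malat1 transcript and at bases 20682, 20713 and 20761 of the Neat1 transcript. Both stretches also held the pattern GGTTCNANNCC of the tRNA B box, in the part after the last shared run. The counts were made over whole genes and do not separate the short and long forms of Neat1.

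Malat1 counts were highest in starved Lap2-depleted cells and fell with serum in those cells. Normalized counts of Malat1 were 7276, 4737 and 7880.5 in starved control cells and 6951, 6582 and 9396 in stimulated control cells. They were 12661, 12963 and 11197 in starved Lap2-depleted cells and 7796, 8643 and 10199 in stimulated Lap2-depleted cells. The 3 starved Lap2-depleted libraries stood above the other 9, and the other 3 groups overlapped. Lap2 siRNA raised Malat1 1.85-fold in starved cells, from 6631 ± 1668 to 12273 ± 945 (SD, n = 3; log2FC 0.89, SE 0.12, adjusted p = 3.6e-07). Serum then lowered it in Lap2-depleted cells (log2FC -0.47, SE 0.12, adjusted p = 0.0027), although DESeq2 gave an adjusted p of 0.0546 for that fall. In control cells the log2FC with serum was 0.21 with a 95% interval of -0.04 to 0.45 (adjusted p = 0.232), it became called at 0.36 without replicate 3 of starved control cells (adjusted p = 0.0436), in a fit of only these groups (0.21, adjusted p = 0.0425) and with a looser filter (0.20, adjusted p = 0.0105), and it was -0.0035 with scaling to total counts. Between stimulated groups the log2FC was 0.22, with an interval of -0.03 to 0.47 (adjusted p = 0.224), and it passed without replicate 3 of stimulated control cells (0.40, adjusted p = 0.0236) and with a looser filter (0.21, adjusted p = 0.0093). The serum response of Lap2-depleted cells was lower than that of control cells by 0.67 on the log2 scale (log2 difference -0.67, SE 0.17, adjusted p = 0.0065). That call was lost without replicate 3 of stimulated control cells (-0.49, adjusted p = 0.0516) and with DESeq2 (-0.70, adjusted p = 0.0783).

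A gene model of the class TEC, whose existence is still to be tested by experiment, Gm37376, is annotated over 453 bases of Malat1 on the other strand, and its group means were 18.3 to 30.5 normalized counts. Reads from Malat1 and from it cannot be told apart within the overlap, because the strand setting of the counting is not given in the sources used here.

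Neat1 rose with serum whichever siRNA was used, and rose with Lap2 siRNA in starved cells. Libraries held 4709, 3856 and 4682 in starved control cells and 8843, 9589 and 13475 normalized counts of it in stimulated control cells. With Lap2 siRNA they held 7004, 7264 and 6757 in starved cells and 11911, 12508 and 12966 in stimulated cells. Starved control libraries were the lowest, starved Lap2-depleted libraries came next without overlap, and the stimulated groups, which overlapped, were above both. Serum raised Neat1 2.41-fold in control cells (log2FC 1.27, SE 0.10, adjusted p = 9.1e-13) and 1.78-fold in Lap2-depleted cells (log2FC 0.83, SE 0.10, adjusted p = 1.3e-08). Lap2 siRNA raised it 1.59-fold in starved cells (log2FC 0.67, SE 0.10, adjusted p = 8.3e-07). In stimulated cells the log2FC for Lap2 siRNA was 0.23 with an interval of 0.04 to 0.42, which did not pass the threshold (adjusted p = 0.0799). It passed without replicate 3 of stimulated control cells, the library with the highest count (0.44, adjusted p = 9.0e-05), without replicate 1 of starved Lap2-depleted cells (0.22, adjusted p = 0.0421), with a looser filter (0.22, adjusted p = 0.0052) and with scaling to total counts (0.32, adjusted p = 0.00899).

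The serum response of Neat1 was lower in Lap2-depleted than in control cells (log2 difference -0.44, SE 0.13, adjusted p = 0.0251). This difference rested on single libraries. It was -0.23 without replicate 3 of stimulated control cells (adjusted p = 0.176), -0.38 without replicate 2 of starved control cells (0.0811), and -0.41 and -0.44 without replicates 1 and 2 of stimulated Lap2-depleted cells (adjusted p 0.0785 and 0.0519). DESeq2 gave -0.47 with an adjusted p of 0.127. The antisense gene Frmd8os, which starts 145 bases from the start of Neat1 on the other strand, had group means of 4.25 to 9.48 normalized counts and was not called in any comparison.

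**Figure D2:**
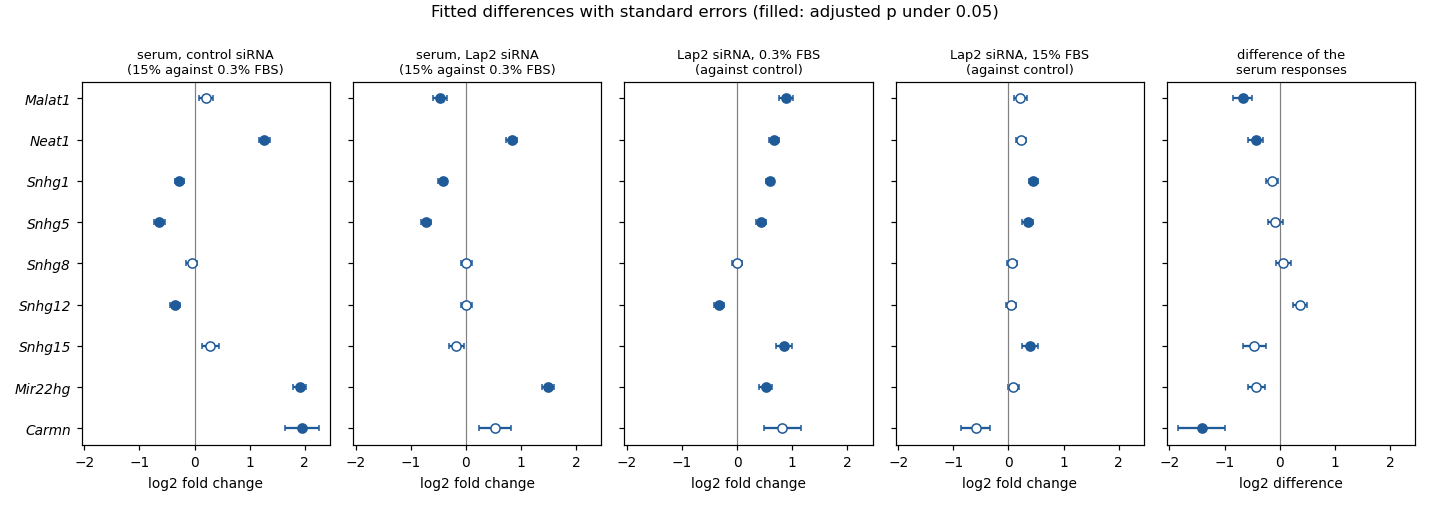
Fitted log2 fold changes with standard errors for the 9 noncoding RNAs in the 5 comparisons, 1 panel each, where filled points have an adjusted p under 0.05 and the vertical line is at 0. Mir22hg and Neat1 lie right of 0 for serum with both siRNAs, 6 of the 9 points are filled right of 0 for Lap2 siRNA in 0.3% FBS, and the 3 filled points of the last panel, Malat1, Neat1 and Carmn, lie left of 0.

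The 5 snoRNA hosts did not move as 1 group. Together they enclose 17 annotated snoRNA genes, 8 in Snhg1 (ENSMUSG00000108414, chr19:8723475-8726443, plus strand), 2 in Snhg5 (ENSMUSG00000097195, chr9:88521050-88522929, minus), 1 in Snhg8 (ENSMUSG00000104960, chr3:123507552-123508404, minus), 5 in Snhg12 (ENSMUSG00000086290, chr4:132308678-132311024, plus) and 1 in Snhg15 (ENSMUSG00000085156, chr11:6525591-6528760, minus). Snora16a is entered in Snhg12 under separate identifiers at nearly the same position, and each entry is counted here. The starts of 4 hosts are printed because snoRNA host genes are known for start sites in a run of pyrimidines, the terminal oligopyrimidine feature that ties many transcripts of the translation machinery to growth signals. Each line runs from 40 bases before the RefSeq start to 50 bases after it on GRCm38.p6, and capitals mark the longest run of C and T that touches the 10 bases on either side of the start. The windows are chr19:8723447-8723536 (plus), chr9:88522848-88522937 (minus), chr3:123508287-123508376 (minus) and chr4:132308638-132308727 (plus).
Snhg1 start: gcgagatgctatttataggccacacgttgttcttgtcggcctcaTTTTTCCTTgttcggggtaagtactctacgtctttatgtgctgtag
Snhg5 start: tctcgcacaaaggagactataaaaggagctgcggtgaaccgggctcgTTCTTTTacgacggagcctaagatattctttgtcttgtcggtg
Snhg8 start: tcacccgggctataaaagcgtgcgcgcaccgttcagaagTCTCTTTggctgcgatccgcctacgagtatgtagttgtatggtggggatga
Snhg12 start: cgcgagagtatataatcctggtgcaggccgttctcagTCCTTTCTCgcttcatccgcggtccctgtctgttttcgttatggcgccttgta
The runs were 9 bases long for Snhg1 and Snhg12, a length reached by 9.54% of 32817 RefSeq promoter windows, and 7 bases for Snhg5 and Snhg8, reached by 19.7%. In Snhg12 and Snhg8 the run spans the RefSeq start, from 3 bases and 1 base before it, and in Snhg1 and Snhg5 it begins at bases 5 and 8 of the RefSeq transcript. GENCODE M21 starts all 4 genes farther upstream, Snhg12 at 132308623 and Snhg8 at 123508404. The position of a run relative to the start thus depends on the annotation. For Snhg15, Mir22hg and Malat1 the longest runs were 4, 5 and 4 bases. Whether these runs have a part in the changes described next was not tested.

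Lap2 siRNA raised Snhg1 whether cells were starved or stimulated, and serum lowered it whichever siRNA was used. Its normalized counts were 1164, 1192 and 1209 in starved control cells and 941, 972 and 1038 in stimulated control cells. With Lap2 siRNA they were 2051, 1688 and 1662 in starved cells and 1261, 1351 and 1422 in stimulated cells. None of the 4 groups overlapped another, with stimulated control cells lowest and starved Lap2-depleted cells highest. Lap2 siRNA raised Snhg1 1.52-fold in starved cells (log2FC 0.60, SE 0.08, adjusted p = 9.0e-08) and 1.37-fold in stimulated cells (log2FC 0.45, SE 0.08, adjusted p = 3.6e-05). Serum lowered it by a log2FC of -0.27 in control cells (SE 0.08, adjusted p = 0.0067) and -0.42 in Lap2-depleted cells (SE 0.08, adjusted p = 3.8e-05). The serum responses differed by -0.15, with an interval of -0.37 to 0.08 (adjusted p = 0.443).

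Slc3a2, which encodes the heavy chain of amino acid transporters, starts 106 bases from Snhg1 on the other strand and moved the other way in 3 of the 4 comparisons. Its normalized counts averaged 2759 ± 11.5 in starved control cells, 4171 ± 79.3 in stimulated control cells, 2004 ± 26.7 in starved Lap2-depleted cells and 3897 ± 205 in stimulated Lap2-depleted cells (SD, n = 3). Serum raised Slc3a2 by 0.60 (SE 0.06, adjusted p = 7.0e-10) in control cells and by 0.96 (SE 0.06, adjusted p = 1.2e-14) in Lap2-depleted cells, and Lap2 siRNA lowered it in starved cells (log2FC -0.46, SE 0.06, adjusted p = 1.8e-07). In stimulated cells, where Snhg1 rose with Lap2 siRNA, Slc3a2 was not called (log2FC -0.10, SE 0.06, adjusted p = 0.273).

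Snhg5 also fell with serum and rose with Lap2 siRNA, with the 2 stimulated groups lowest. Normalized counts of Snhg5 were 409, 361 and 409 in starved control cells and 257, 240.4 and 256 in stimulated control cells, and with Lap2 siRNA they were 537, 561 and 486 starved and 315, 312 and 332 stimulated. Each group stood apart from the other 3, and all 6 stimulated libraries lay below all 6 starved libraries. Serum lowered Snhg5 1.56-fold in control cells (log2FC -0.64, SE 0.10, adjusted p = 2.8e-06) and 1.65-fold in Lap2-depleted cells (log2FC -0.72, SE 0.10, adjusted p = 1.9e-07). Lap2 siRNA raised it 1.35-fold in starved cells (log2FC 0.43, SE 0.09, adjusted p = 0.00035) and 1.27-fold in stimulated cells (log2FC 0.35, SE 0.10, adjusted p = 0.0099). The latter call was lost without replicate 2 of stimulated control cells (0.32, adjusted p = 0.053) and without replicate 3 of stimulated Lap2-depleted cells (0.31, adjusted p = 0.0576). The serum responses differed by -0.08, with an interval of -0.36 to 0.20.

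The snoRNAs of Snhg5 are near-identical copies that can be compared directly. Both belong to the box C/D class, which guides ribose methylation, and capitals mark the C box and the D box. They are printed from GENCODE M21 on mm10, minus strand, at chr9:88521529-88521600 and chr9:88521797-88521868.
Snord50a: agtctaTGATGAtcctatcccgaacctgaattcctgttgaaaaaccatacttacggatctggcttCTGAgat
Snord50b: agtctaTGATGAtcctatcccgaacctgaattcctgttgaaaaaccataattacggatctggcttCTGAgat
The 72 bases differed at 1 position, C50A, counted from 1 at the 5' end with the base of Snord50a first. One C/D snoRNA of Snhg1 and the H/ACA snoRNAs of Snhg8 and Snhg15, which guide pseudouridylation and have an ACA box near their 3' end (capitals), show the other sizes. Snord22 lies at chr19:8725866-8725991 (plus), Snora24 at chr3:123507937-123508066 (minus) and Snora9 at chr11:6528033-6528165 (minus).
Snord22: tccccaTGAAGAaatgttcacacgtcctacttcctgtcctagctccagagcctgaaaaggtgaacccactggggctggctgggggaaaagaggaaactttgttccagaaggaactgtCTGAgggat
Snora24: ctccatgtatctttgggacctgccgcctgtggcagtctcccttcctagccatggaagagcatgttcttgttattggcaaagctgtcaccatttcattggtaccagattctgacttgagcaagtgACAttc
Snora9: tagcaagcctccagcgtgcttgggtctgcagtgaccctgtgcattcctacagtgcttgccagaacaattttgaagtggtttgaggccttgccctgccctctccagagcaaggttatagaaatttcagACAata
All 22 small RNA genes annotated inside the 9 hosts, which are these 17 snoRNAs, Mir22 and 4 entries of other kinds, were listed at 0 in all 12 libraries, whereas 210 of 1507 snoRNA genes of the whole table had a read in some library. The snoRNA entries therefore gave no count to set beside those of their hosts. Each of the 22 lies under an exon of some annotated transcript of its host. How the counting treated reads that overlap a host and its snoRNA is not given in the sources used here. Whether the host counts hold reads of the snoRNAs is thus not known.

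Snhg8, the host of the H/ACA snoRNA Snora24, was not called in any comparison. Its normalized counts were 1599.7, 1281 and 1282 in starved control cells and 1279, 1354 and 1382 in stimulated control cells. With Lap2 siRNA they were 1661, 1223 and 1261 in starved cells and 1428, 1265 and 1492 in stimulated cells. All 4 groups overlapped, and replicate 1 was the highest library of both starved groups. The log2FC intervals were -0.24 to 0.14 and -0.18 to 0.20 for serum with control and Lap2 siRNA, and -0.20 to 0.19 and -0.13 to 0.25 for Lap2 siRNA in starved and stimulated cells. The sign of these small values turned with the scaling in 2 of the 4 comparisons, and with scaling to total counts the serum response in control cells was -0.26 and passed the threshold (adjusted p = 0.0244).

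Snhg12 was the 1 RNA of the 9 that fell with Lap2 siRNA in starved cells. Normalized counts of Snhg12 were 466, 474 and 449.8 in starved control cells and 350.5, 348 and 393 in stimulated control cells. With Lap2 siRNA they were 389, 361 and 363 starved and 375, 368 and 379 stimulated. The starved control libraries stood above all 9 others, and the other 3 groups overlapped. Serum lowered Snhg12 in control cells (log2FC -0.35, SE 0.09, adjusted p = 0.0026) and Lap2 siRNA lowered it in starved cells (log2FC -0.32, SE 0.09, adjusted p = 0.0049). The fall with Lap2 siRNA was -0.21 with an adjusted p of 0.0643 with scaling to total counts. In Lap2-depleted cells the log2FC with serum was 0.01, with an interval of -0.18 to 0.20, and the difference between the serum responses, 0.36 (SE 0.13), had an adjusted p of 0.0591. It passed the threshold without replicate 3 of stimulated control cells (0.43, adjusted p = 0.0355) and without replicate 1 of starved Lap2-depleted cells (0.37, adjusted p = 0.0441), and with a stricter filter (0.36, adjusted p = 0.043).

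Snhg15 hosts Snora9. Its promoter is printed because, of the 7 searched for these genes, only it held the full cyclic AMP response element TGACGTCA. That palindrome is bound by CREB and ATF factors. The RefSeq window runs from 250 bases before the start to 50 bases after it on GRCm38.p6, chr11:6528711-6529010, minus strand. Capitals mark TGACGTCA, its core TGACGT, the E-box CACGTG and the GC box GGGCGG.
Snhg15 promoter: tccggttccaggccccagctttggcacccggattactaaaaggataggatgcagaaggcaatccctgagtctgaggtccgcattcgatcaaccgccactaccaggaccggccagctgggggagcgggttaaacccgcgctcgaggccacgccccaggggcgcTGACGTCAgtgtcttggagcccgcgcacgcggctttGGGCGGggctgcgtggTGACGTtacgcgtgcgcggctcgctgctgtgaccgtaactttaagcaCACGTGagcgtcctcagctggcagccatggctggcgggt
The element TGACGTCA, which contains the core, began at base -88, a second core at -36, and the E-box at base 12 of the transcript. Searched on both strands, TGACGTCA occurred in 1.79% of 32817 RefSeq windows of this length, the core TGACGT in 7.51%, CACGTG in 7.15% and GGGCGG in 35.6%. The core also occurred in the promoters of Malat1, at -45 and -155, and Mir22hg, and GGGCGG in those of Snhg1, Snhg5, Snhg8 and Mir22hg. TATAAA, the TATA box, occurred on either strand in 13.6% of windows. It was in those of Snhg5 and Snhg8 in the direction of the gene, at -23 and -30. In that of Snhg1 it was only on the opposite strand, at -29.

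Snhg15 rose with Lap2 siRNA in starved cells. Its normalized counts were 173, 114 and 119.7 in starved control cells, 165, 175 and 155 in stimulated control cells, 283, 228 and 219 in starved Lap2-depleted cells and 193, 230.1 and 225 in stimulated Lap2-depleted cells. All 6 Lap2-depleted libraries stood above all 6 control libraries, and the 2 serum conditions overlapped with each siRNA. Lap2 siRNA raised it 1.80-fold in starved cells (log2FC 0.85, SE 0.14, adjusted p = 1.2e-05). In stimulated cells the rise was 1.31-fold (log2FC 0.39, SE 0.14) with an adjusted p of 0.0457, close to the threshold. That call was lost without any 1 of 7 libraries, namely replicate 3 of starved control cells (adjusted p = 0.0557), replicates 1, 2 and 3 of stimulated control cells (0.118, 0.0641 and 0.133), replicate 2 of starved Lap2-depleted cells (0.0533) and replicates 2 and 3 of stimulated Lap2-depleted cells (0.155 for each), and also with a stricter filter (0.0511) and with DESeq2 (0.0625). The log2FC with serum was 0.29 in control cells (interval -0.02 to 0.59, adjusted p = 0.161) and 0.51 without replicate 1 of starved control cells (adjusted p = 0.0126). In Lap2-depleted cells it was -0.17 (interval -0.45 to 0.11), and -0.40 with scaling to total counts (adjusted p = 0.0185). The serum responses differed by -0.46 (SE 0.20, adjusted p = 0.146), and by -0.70 without replicate 1 of starved control cells (adjusted p = 0.0163).

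Mir22hg (ENSMUSG00000085148, chr11:75461539-75466676, plus strand) had the largest response to serum of the 9 with Lap2 siRNA and rose with it in control cells as well. Its product miR-22 comes in 2 arms, printed from RefSeq with the seed (bases 2 to 8, which pair with target RNAs) in capitals, at chr11:75463734-75463755 and chr11:75463772-75463793. The promoter follows, chr11:75461289-75461588, plus strand, with the TGACGT core and GGGCGG in capitals, because the gene was induced by serum.
mmu-miR-22-5p: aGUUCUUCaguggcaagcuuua
mmu-miR-22-3p: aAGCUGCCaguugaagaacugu
Mir22hg promoter: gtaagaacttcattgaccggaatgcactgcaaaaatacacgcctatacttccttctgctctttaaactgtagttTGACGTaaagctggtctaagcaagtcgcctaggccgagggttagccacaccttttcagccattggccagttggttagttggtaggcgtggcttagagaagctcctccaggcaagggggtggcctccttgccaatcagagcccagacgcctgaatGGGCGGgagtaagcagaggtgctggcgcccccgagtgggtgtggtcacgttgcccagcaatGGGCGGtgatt
Each seed was held by 1 of 1679 mature mouse miRNAs in the table, miR-22 itself, so no other miRNA listed shared it. The core TGACGT began at -176 and GGGCGG at -22 and at base 40. The CArG box, the 10-base site of serum response factor, was in 1.63% of all windows and in 0 of the 7 searched for these genes. That says only that these letters are not in the windows searched, which did not include those of Carmn and Neat1.

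Normalized counts of Mir22hg were 354, 268 and 319 in starved control cells and 983, 1134 and 1417 in stimulated control cells. With Lap2 siRNA they were 436, 459 and 448 starved and 1265, 1416 and 1078 stimulated. All 6 stimulated libraries stood above all 6 starved libraries, and among starved libraries all 3 Lap2-depleted libraries stood above the controls. Serum raised Mir22hg 3.76-fold in control cells (log2FC 1.91, SE 0.11, adjusted p = 1.8e-15) and 2.80-fold in Lap2-depleted cells (log2FC 1.48, SE 0.11, adjusted p = 6.2e-13). Lap2 siRNA raised it 1.43-fold in starved cells, from 314 ± 43.5 to 448 ± 11.3 (SD, n = 3; log2FC 0.52, SE 0.12, adjusted p = 0.00076), and in stimulated cells the log2FC was 0.09 with an interval of -0.12 to 0.30. The difference between the serum responses, -0.42 (SE 0.16), missed the threshold (adjusted p = 0.0732). It passed without replicate 1 of starved control cells (-0.55, adjusted p = 0.0352), replicate 1 of stimulated control cells (-0.55, 0.0147), replicate 1 of starved Lap2-depleted cells (-0.47, 0.0278) or replicate 2 of stimulated Lap2-depleted cells (-0.52, 0.0349), and with a looser filter (-0.43, 0.00877). The protein-coding gene Tlcd2 is annotated over 4962 bases of Mir22hg on the same strand. It had 303 reads over all 12 libraries and was called in no comparison. How the counting treated reads that overlap both genes is not given in the sources used here. Whether such reads affect the Mir22hg counts is thus not known.

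Carmn (ENSMUSG00000097324, chr18:61649625-61665537, minus strand), the RNA of smooth muscle named above, was the least abundant of the 9, with 8 to 68 reads in a library. Its normalized counts were 7.85, 17.3 and 20.5 in starved control cells and 55.9, 67.3 and 53.5 in stimulated control cells. With Lap2 siRNA they were 23.9, 36.4 and 20.6 starved and 35.8, 42.4 and 38.6 stimulated. The stimulated control libraries were above all 9 others. The starved control libraries were below all 9 others, by 20.5 against 20.6 at the closest. The Lap2-depleted groups lay between them and overlapped each other. Serum raised Carmn 3.86-fold in control cells (log2FC 1.95, SE 0.30, adjusted p = 3.4e-06). In Lap2-depleted cells the log2FC was 0.53 with an interval of -0.06 to 1.13 (adjusted p = 0.174), and the serum responses differed by -1.41 (SE 0.43, adjusted p = 0.0221). The difference was no longer called without replicate 1 of starved control cells (-1.13, adjusted p = 0.071), replicate 2 of stimulated control cells (-1.31, 0.0639), replicate 2 of starved Lap2-depleted cells (-1.17, 0.0933) or replicate 1 of stimulated Lap2-depleted cells (-1.36, 0.0535), and it was called with DESeq2.

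Between siRNAs Carmn missed the threshold in both serum conditions, and the groups did not overlap. In starved cells they were separated only by 20.5 against 20.6 normalized counts. Replicate 2 of starved control cells and replicate 3 of starved Lap2-depleted cells each had 20 reads, so that separation rests on the scaling. The log2FC was 0.82 in starved cells (SE 0.33, interval 0.14 to 1.5, adjusted p = 0.0518) and -0.59 in stimulated cells (interval -1.14 to -0.05, adjusted p = 0.114). The former passed without replicate 3 of starved control cells (1.08, adjusted p = 0.0274) and without replicate 1 or 3 of starved Lap2-depleted cells (0.92 and 0.98, adjusted p 0.0414 and 0.0295), and with scaling to total counts or upper-quartile scaling (0.93 and 0.83, adjusted p 0.0247 and 0.0483). The latter passed in a fit of only the stimulated groups (-0.60, adjusted p = 0.0386). The smooth muscle genes Myocd, Acta2, Actg2, Tagln, Cnn1, Myh11, Lmod1, Synpo2 and Des summed to 8093 to 10557 normalized counts in starved control libraries, 55736 to 58033 in stimulated control libraries, 3723 to 4133 in starved Lap2-depleted libraries and 18893 to 19567 in stimulated Lap2-depleted libraries. None of the 9 was at 0 in all libraries. Their part in the Carmn values was not tested. Of the 8 tested, serum raised 6 in control cells (median log2FC 2.49) and raised 6 in Lap2-depleted cells (median 1.80), while Lap2 siRNA lowered 4 in starved cells (median -0.95) and 5 in stimulated cells (median -1.08). Over all genes these shares were 15.6% and 18.3% raised by serum, and 18.6% and 12.1% lowered by Lap2 siRNA. Lmod1, an actin-filament nucleator of smooth muscle, rose by 3.56 with serum in control cells (adjusted p = 3.2e-26) and Tagln, an actin-binding protein, fell by 1.87 with Lap2 siRNA in starved cells (adjusted p = 6.9e-18). With Lap2 siRNA the median of these genes and the Carmn value had opposite signs in starved cells (-0.95 and 0.82). They had the same sign in stimulated cells (-1.08 and -0.59), and Carmn was called in neither. With serum both were above 0 in control cells (2.49 and 1.95) and in Lap2-depleted cells (1.80 and 0.53, the latter not called).

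The gene of the precursor of miR-143 lies 366 bases beyond the end of Carmn on the same strand. Mir143 had group means of 0 to 3.66 normalized counts and was at 0 in 5 of the 12 libraries. Mir145a, the other miRNA gene of that cluster, averaged 0.937 ± 0.875 in starved control cells, 18.0 ± 2.15 in stimulated control cells, 8.64 ± 4.71 in starved Lap2-depleted cells and 11.7 ± 5.56 in stimulated Lap2-depleted cells (SD, n = 3). It was called higher with serum in control cells (adjusted p = 3.5e-05) and with Lap2 siRNA in starved cells (adjusted p = 0.0030). Total RNA libraries of this kind count fragments of precursor or longer RNA there, not the mature miRNA. Mir145b and Mir22 were at 0 in all 12 libraries.

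Per length of exon, Snhg8 and Malat1 were the most abundant of the 9 and Carmn the least. Levels are CPM (counts scaled to the library size) divided by the kilobases of the union of annotated exons. That union is the whole gene for Malat1, Neat1, Snhg1, Snhg8 and Snhg12, with bases that are intron in some transcripts. It is 1359 of 3170 bases for Snhg15, 1924 of 5138 for Mir22hg and 2304 of 15913 for Carmn. In Snhg8 it includes the 130 bases of Snora24, whose reads may be in the host count. The ranking between genes is therefore approximate. In starved control cells Snhg8 stood at 77.1 ± 10.2, Malat1 at 45.0 ± 11.3, Snhg1 at 18.98 ± 0.365, Snhg5 at 10.8 ± 0.755, Neat1 at 10.1 ± 1.11, Snhg12 at 9.14 ± 0.243, Mir22hg at 7.73 ± 1.07, Snhg15 at 4.73 ± 1.13 and Carmn at 0.313 ± 0.135 (SD, n = 3). Snhg5 overlapped Neat1 and Neat1 overlapped Snhg12, and the other neighbours in this order did not overlap. In stimulated control cells Mir22hg (29.0 ± 5.43) and Neat1 (24.3 ± 5.68) came directly after Snhg8 (74.4) and Malat1 (51.9) and overlapped each other. In starved Lap2-depleted cells Malat1 (83.3 ± 6.41) and Snhg8 (76.8 ± 13.5) overlapped. Dividing by the longest transcript instead gave 15.3 for Snhg5, 14.3 for Snhg12 and 9.52 for Snhg15 in starved control cells, so the order of these neighbours depends on the gene model.

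**Figure D3:**
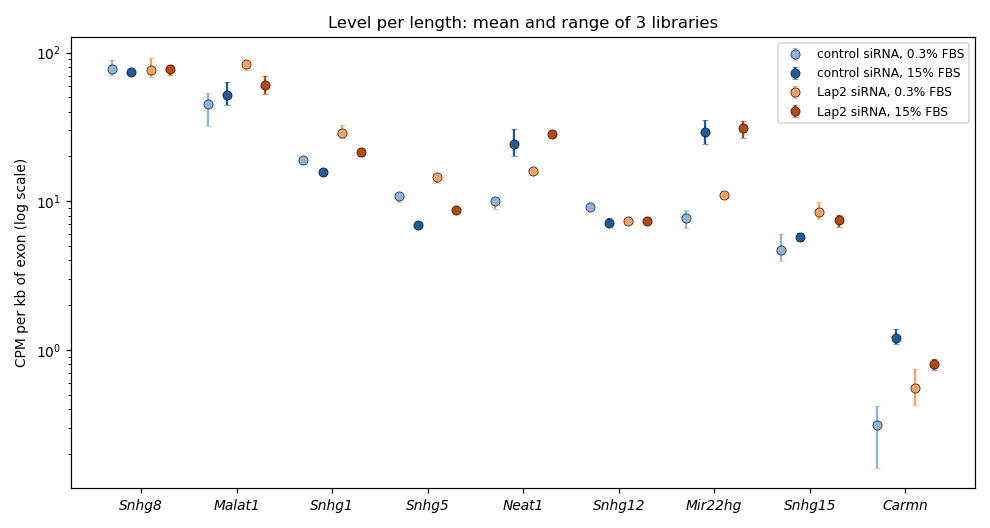
CPM per kilobase of exon (vertical axis, log scale) of the 9 noncoding RNAs, with the mean of 3 libraries as a point and their range as a bar, coloured by group. Snhg8 stays between 74.4 and 77.5, Malat1 reaches 83.3 in starved Lap2-depleted cells, and Carmn is lowest in each group.

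The genes most like each RNA over the 12 libraries were named by the Pearson correlation of log2 CPM among 10448 genes of at least 100 normalized counts (10449 for Carmn), as a description. All 12 points share the 4 groups, so any 2 genes that differ between the groups in the same way correlate. The highest values were 0.987 for Neat1 with Zfp653 and for Mir22hg with Tmem39a and Lmna, 0.983 for Snhg5 with Gins3, 0.978 for Neat1 with Dusp14, and 0.977 for Snhg5 with Upf3b, a factor of nonsense-mediated decay. Snhg1 was most like Chtf8 (0.976) and Cdk2ap2 (0.975), Snhg15 most like Psmc5 (0.973) and Pgp (0.968), and Malat1 most like Gtf2a2 (0.959) and another snoRNA host, Snhg6 (0.947). The lower values were 0.943 and 0.932 for Snhg12 with Pex6 and Fignl2, 0.932 for Carmn with Hnrnpdl and with Caprin1, and 0.900 and 0.895 for Snhg8 with Cox6b1 and Rplp2.

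Other lncRNA hosts of snoRNAs were compared with the 5 above. Over all genes tested, Lap2 siRNA raised 17.8% and lowered 18.6% in starved cells and raised 11.4% and lowered 12.1% in stimulated cells. Serum raised 15.6% and lowered 13.9% of them in control cells and raised 18.3% and lowered 14.9% in Lap2-depleted cells. Of 12 tested, Lap2 siRNA raised 5 and lowered 1 in starved cells (median log2FC 0.35) and raised 4 in stimulated cells (median 0.22). Snhg17 rose by 0.85 (adjusted p = 3.2e-08) in starved cells and Gas5, a host whose spliced RNA is a well-known target of nonsense-mediated decay, fell by 0.18 (log2FC -0.18, adjusted p = 0.035) there, and the latter was not called with scaling to total counts. Serum in control cells raised 1 and lowered 1 (median -0.16), with 1810032O08Rik at 0.52 (adjusted p = 0.0075) and Zfas1 at -0.39 (adjusted p = 0.0017). Serum in Lap2-depleted cells raised 2 and lowered 3 (median -0.03), from Snhg20 at -0.83 (adjusted p = 0.00084) to 1810032O08Rik at 0.55 (adjusted p = 0.0021), and with scaling to total counts none of these hosts was called higher with serum. Of the 28 protein-coding hosts of snoRNAs, mostly ribosomal protein genes, Lap2 siRNA in starved cells lowered 7 and raised 4 (median -0.11). Over all genes these shares were 18.6% and 17.8%. Nop56, a core protein of C/D snoRNPs and itself a host, rose by 1.06 (adjusted p = 3.9e-14) and Rpl23a fell by 0.33 (log2FC -0.33, adjusted p = 0.00079). Serum raised 3 of them in control cells (median -0.09), but with scaling to total counts 1 was higher and 25 were lower.

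Genes for proteins of snoRNPs, nuclear speckles, paraspeckles and nonsense-mediated decay were counted in the same way. The shares over all genes were 17.8% higher and 18.6% lower with Lap2 siRNA in starved cells, and 11.4% and 12.1% in stimulated cells. With serum they were 15.6% higher and 13.9% lower in control cells, and 18.3% and 14.9% in Lap2-depleted cells. Of 8 snoRNP core proteins, Lap2 siRNA raised 7 in starved cells (median 0.62) and 5 in stimulated cells (median 0.32), with Nop56 highest at 1.06 and 0.64 (adjusted p = 3.9e-14 and 7.4e-09) and Fbl, the methyltransferase of C/D snoRNPs, lowest of those raised in starved cells at 0.25 (adjusted p = 0.0084). Serum raised 4 of them in control cells (median 0.20) and raised 2 and lowered 2 in Lap2-depleted cells (median -0.08), and with scaling to total counts these counts became 1 against 1 and 0 against 6. Of 15 nuclear speckle proteins, the neighbours of Malat1 in the cell, Lap2 siRNA raised 13 in starved cells (median 0.36), from Son at 0.19 (adjusted p = 0.028) to Srsf7 at 0.62 (adjusted p = 1.9e-08), and 1 in stimulated cells, Srsf10 at 0.21 (median 0.07, adjusted p = 0.012). Serum raised 11 in control cells (median 0.28), with Srsf5 highest at 0.75 (adjusted p = 6.2e-11), and in Lap2-depleted cells raised 4 and lowered 4 (median 0.05). With scaling to total counts serum gave 4 higher and 2 lower in control cells and 0 higher and 9 lower in Lap2-depleted cells.

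Of 18 paraspeckle proteins, which assemble on Neat1, Lap2 siRNA raised 10 in starved cells (median 0.18) and 6 in stimulated cells (median 0.12), and Sfpq, a core protein needed to build paraspeckles, rose by 0.60 in starved cells. Serum raised 6 and lowered 1 in control cells (median 0.08) and raised 4 and lowered 4 in Lap2-depleted cells (median -0.02), with Pspc1 at 0.52 and 0.60 and Nudt21 at -0.37 and -0.27. With scaling to total counts these became 1 against 5 in control cells and 1 against 13 in Lap2-depleted cells. Of 10 factors of nonsense-mediated decay, Lap2 siRNA raised 4 and lowered 1 in starved cells (median 0.15) and raised 2 and lowered 1 in stimulated cells (median 0.07). Upf3b, which links the exon junction to decay, fell with serum at -0.62 and -0.75 and rose with Lap2 siRNA at 0.45 and 0.31, in starved and stimulated cells. Serum raised 2 and lowered 3 of the 10 in control cells and raised 2 and lowered 2 in Lap2-depleted cells (medians -0.07 and -0.01). Among all genes 15.6% rose and 13.9% fell with serum in control cells, and 18.3% and 14.9% in Lap2-depleted cells. With Lap2 siRNA 17.8% rose and 18.6% fell in starved cells, and 11.4% and 12.1% in stimulated cells.

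**Figure D4:**
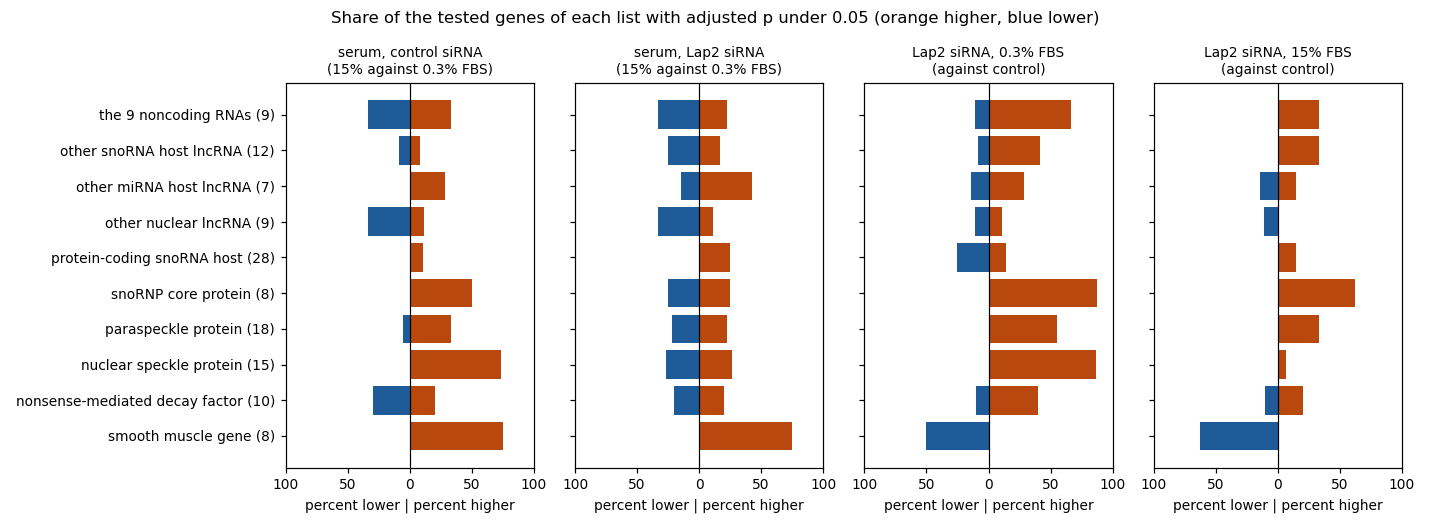
Percent of the tested genes of each list (number in brackets) called lower, to the left of 0, and higher, to the right, in 4 comparisons at an adjusted p under 0.05. For Lap2 siRNA in 0.3% FBS, 6 of the 9 noncoding RNAs, 7 of 8 snoRNP core proteins and 13 of 15 nuclear speckle proteins were higher, and 4 of 8 smooth muscle genes were lower. Over all genes tested 17.8% were higher and 18.6% lower there. The lists were chosen with earlier results of these data known, so the shares are a description.

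Other lncRNA hosts of miRNAs and other nuclear lncRNAs moved gene by gene. Shares over all genes with serum were 15.6% higher and 13.9% lower in control cells, and 18.3% and 14.9% in Lap2-depleted cells. With Lap2 siRNA they were 17.8% higher and 18.6% lower in starved cells, and 11.4% and 12.1% in stimulated cells. Of 7 other miRNA hosts tested, serum raised 2 in control cells (median 0.15) and raised 3 and lowered 1 in Lap2-depleted cells (median 0.05). Mir155hg, the host of miR-155, rose by 3.43 (adjusted p = 4.5e-10) and 2.97 (adjusted p = 5.1e-08), and Mir17hg, the host of a growth-promoting miRNA cluster, rose by 0.94 and 0.86. Lap2 siRNA raised 2 and lowered 1 in starved cells (median -0.03) and raised 1 and lowered 1 in stimulated cells (median -0.05). The imprinted RNA H19, host of miR-675, fell by 4.17 in starved cells (adjusted p = 1.1e-21) and by 1.26 in stimulated cells (adjusted p = 2.4e-10), and Mir17hg rose by 0.99 and 0.92. Of 9 other nuclear lncRNAs tested, Lap2 siRNA lowered Tug1 in both conditions (log2FC -1.39 and -1.22, adjusted p = 2.3e-16 and 1.5e-14) and raised Kcnq1ot1, the antisense RNA of an imprinted domain, in starved cells (0.52, adjusted p = 0.0034). Serum raised 1, Tug1, and lowered 3 with each siRNA (medians 0.02 and -0.21), with Kcnq1ot1 at -0.41 and -0.63, and with scaling to total counts Tug1 was not called higher in control cells.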

How the data were processed

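RNA-seq of NIH 3T3 cells gave 12 libraries, grouped by the siRNA and serum labels of each sample. The deposited values are raw read counts per gene, which the authors made with TopHat2 and HTSeq on mm10 (versions, annotation and strand setting not given in the sources used here), and their own test was DESeq with a count cutoff above 1. Library totals were 18026298 to 26265253 counts, which limits precision for RNAs of few reads such as Carmn.

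Differences were computed here in R 4.3.3 with edgeR 4.0.16 (TMM, glmQLFit, glmQLFTest, a mean for each of the 4 groups, Benjamini-Hochberg adjustment at 0.05) over the 18668 genes whose count exceeded 1 in 3 or more libraries. The procedure was tested on simulated data. Intervals are 95%. Alternatives were DESeq2 1.42.0, upper-quartile normalization, scaling to total counts, looser and stricter filters, fits of only the 2 groups compared, replicate number as a block, and leaving out each library. Correlations used log2 CPM with a prior count of 2. Exon positions came from GENCODE M21, and promoters and miRNAs from RefSeq (Python 3.11.15, pandas 2.3.3). GENCODE M21 placed 8 of the 9 genes as the tables used here did, and Snhg12 with another start. No promoter was used for Neat1, for which the promoter set held none. Nor was one used for Carmn, whose chromosome was left out when the promoters of these genes were picked.

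The 9 genes and the gene lists were chosen with earlier results of these data known. Named are the 9 genes, Tmpo, the called list genes with the highest and lowest log2FC per comparison, a few further list genes chosen after their values were seen, the 2 genes most like each RNA, and annotated neighbours. Of the lists, 13 of 16 other snoRNA hosts, 9 of 10 other miRNA hosts and 13 of 20 hosted small RNAs were matched.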

Additional observations from a re-analysis of the deposited data

Results flagged for a closer look

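For 3 of the 9 RNAs the response to serum differed between Lap2-depleted and control cells by the interaction term of the fit, against 7.09% of all genes with a larger and 6.51% with a smaller response in Lap2-depleted cells. The log2 difference was -0.67 for Malat1, -0.44 for Neat1 and -1.41 for Carmn. The 3 RNAs reached it from different levels. Malat1 fell with serum in Lap2-depleted cells, where its starved level was the highest of the 4 groups, Neat1 rose with both siRNAs, and Carmn rose in control cells from 15.2 ± 6.58 to 58.9 ± 7.34 normalized counts and stood at 27.0 ± 8.34 and 39.0 ± 3.31 in starved and stimulated Lap2-depleted cells (SD, n = 3). Each of the 3 differences was lost when certain single libraries were left out, which are named with the values above.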

How the results depend on the processing

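Of the fold changes of the 9 RNAs under 7 other settings (6 for the difference of the responses), 276 kept direction and side of the threshold, 14 became called, 6 lost the call and 10 changed sign. Over the 12 libraries left out in turn these were 484, 15, 18 and 23. The number of RNAs called for Lap2 siRNA in 15% FBS was 3, it was 5 with any count above 0 as the filter, and 1 to 4 with a library left out (1 without replicate 2 of stimulated control cells or replicate 3 of stimulated Lap2-depleted cells). The number whose serum responses differed was 3, it was 1 with DESeq2, and 1 to 5 with a library left out (1 without replicate 1 of stimulated Lap2-depleted cells, 5 without replicate 1 of starved Lap2-depleted cells). The cause was not tested. No value whose sign changed passed the threshold, though some were as far from 0 as -0.22. With scaling to total counts Malat1 with serum in control cells was -0.0035, against 0.21 in the main fit. With total counts, upper quartile and DESeq2 in turn, serum in Lap2-depleted cells gave -0.22, -0.10 and -0.0053 for Snhg8 and -0.22, -0.10 and -0.0068 for Snhg12, and Lap2 siRNA in starved cells gave 0.11, 0.013 and 0.0087 for Snhg8. With a library left out, Snhg8 ranged from -0.093 to 0.071 for serum in control cells, -0.083 to 0.15 for serum in Lap2-depleted cells, -0.14 to 0.12 and -0.0035 to 0.13 for Lap2 siRNA in starved and stimulated cells, and -0.074 to 0.19 for the difference of the responses. Snhg12 ranged from -0.024 to 0.032 for serum in Lap2-depleted cells, and Mir22hg from -0.037 to 0.25 for Lap2 siRNA in stimulated cells. Same-numbered libraries, matched only by their order within each group, did not deviate together (correlations of their deviations -0.034 to 0.043). The numbers were not taken as pairs. With replicate number as a replicate block, Carmn with Lap2 siRNA in starved cells (0.83, adjusted p = 0.0429) and Neat1 in stimulated cells (0.24, adjusted p = 0.0256) became called and no other call changed. Scaling to total counts changed the split of all called genes from 2915 higher and 2597 lower to 1632 and 5847 for serum in control cells, from 3420 and 2777 to 1658 and 5951 for serum in Lap2-depleted cells, from 3330 and 3480 to 4692 and 2638 for Lap2 siRNA in starved cells, and from 2125 and 2250 to 3471 and 1678 in stimulated cells. Upper-quartile scaling gave 2183 and 3878 for serum in control cells and 2383 and 3942 in Lap2-depleted cells. Carmn, with 8 to 68 reads in a library, had the largest standard errors of the 9.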
